A study of Gallus gallus with 6 samples.

Results

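The genes described here encode the heat shock proteins, the DnaJ proteins that partner the HSP70 chaperones, the subunits of the cytosolic chaperonin, and their regulators. They were taken as all genes of the chicken array whose symbol begins with HSP, DNAJ, HSF, BAG followed by a digit, or CCT followed by a digit, with 1 probe set per gene, the one with the highest mean over the 6 samples. That gave 82 genes of 13009 named genes, covered by 159 of 38439 probe sets. The symbol rule also takes in HSPG2 (perlecan, a matrix proteoglycan), HSPBAP1 (a protein that binds a small heat shock protein) and HSF2BP (a partner of HSF2 that also binds BRCA2), which are not chaperones. TCP1, the remaining subunit of the chaperonin, does not carry the prefix and is given with the partner genes.

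The samples were DT40 cells, a chicken B cell line derived from the bursa of Fabricius, with 3 wild-type samples and 3 Pax5-deficient samples (genotype Pax5-/-). In the Pax5-deficient cells the gene for PAX5, a transcription factor that maintains B cell identity, had been targeted with 2 constructs carrying different drug selection cassettes, and stably transfected clones had been picked. All 6 samples were of cells grown at 40 °C, per the labels, and no heat treatment is mentioned. Transfection, selection and clone picking cannot be told apart from the loss of PAX5 in this design, and whether those samples come from 1 clone or several is not stated in the labels. Each sample was measured on 1 Affymetrix array, and the values are log2 expression, on which a difference of 1 is a doubling.

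Chaperones bind unfolded proteins and keep them from aggregating. HSP70 proteins do so in cycles of ATP hydrolysis, which DnaJ proteins start and nucleotide exchange factors, such as the BAG and HSP110 proteins, reset, while HSP90 proteins act later on kinases and receptors and the ring-shaped chaperonin folds actin and tubulin. Heat shock factors (HSF) are the transcription factors that raise many of these genes when unfolded proteins accumulate. B cells and plasma cells also need the chaperones of the endoplasmic reticulum to fold immunoglobulin.

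The arrays were alike in scale, with medians between 3.948 and 4.016, and correlations across probe sets were at least 0.9909 within a group and at most 0.9806 between groups. The median SD within a group was 0.105 in wild-type and 0.124 in Pax5-deficient samples, and the number of arrays limits the precision. Nothing says that the samples came from separate cultures, so p-values measure only the spread between these samples. Of 10 B cell markers 8 were measured, none of them at background in every sample, and 5 of them fell (62.5%). On its brightest probe set PAX5 itself had a log2 difference of 0.24 ± 0.09 (limma's SE, limma adjusted p = 0.136). That probe set was dim, with 4.60, 4.49 and 4.65 in wild-type and 4.81, 4.77 and 4.90 in Pax5-deficient samples, where background averaged 3.83. It thus says little about PAX5 transcript in either group, and where it lies relative to the targeted part is unknown here. Of 29 markers of myeloid, T lineage, erythroid and stromal cells 24 were measured and 8 of these were at background in all samples. Among the 24, 3 were higher and 1 was lower, where 6.01% of all named genes were higher and 9.74% lower. In such bulk samples, fewer cells of a type and less RNA per cell cannot be told apart.

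Between the genotypes the chaperone genes went both ways, and HSPA2, HSPB9 and DNAJB11 had the largest rises and BAG5 the largest fall. Of the 82 members 11 rose, 6 fell and 65 did not pass an adjusted p of 0.05 (limma, Benjamini-Hochberg over all 38439 probe sets). The risers were 13.4% of the members, where 6.01% of all named genes rose, and the fallers 7.32%, where 9.74% of all named genes fell. In either direction 15.8% of named genes passed. After quantile normalization of the deposited values 8.14% of named genes were higher and 8.75% lower, and 14 members were higher and 5 lower. The median log2 difference was 0.06 for the members and 0.03 for all named genes. All 3 Pax5-deficient samples lay above all 3 wild-type samples for 25 members and below them for 11, while 17.5% of named genes did the first and 17.5% the second. On their brightest probe set 6 members were at background in every sample, as were 2869 of the 13009 named genes. Background was the 95% point of the 689 probe sets for virus genomes, on average 3.83. The shares over all named genes thus include many that were not detected. Without probe sets under the median level, 9.15% of the 8917 named genes kept were higher and 14.4% lower. That filter also dropped some of the 82 members, and of those kept 12 were higher and 6 lower. Without wild-type replicate 2, 11 members passed, 8 higher and 3 lower. Over all named genes 3.43% were then higher and 6.46% lower.

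**Figure D1:**
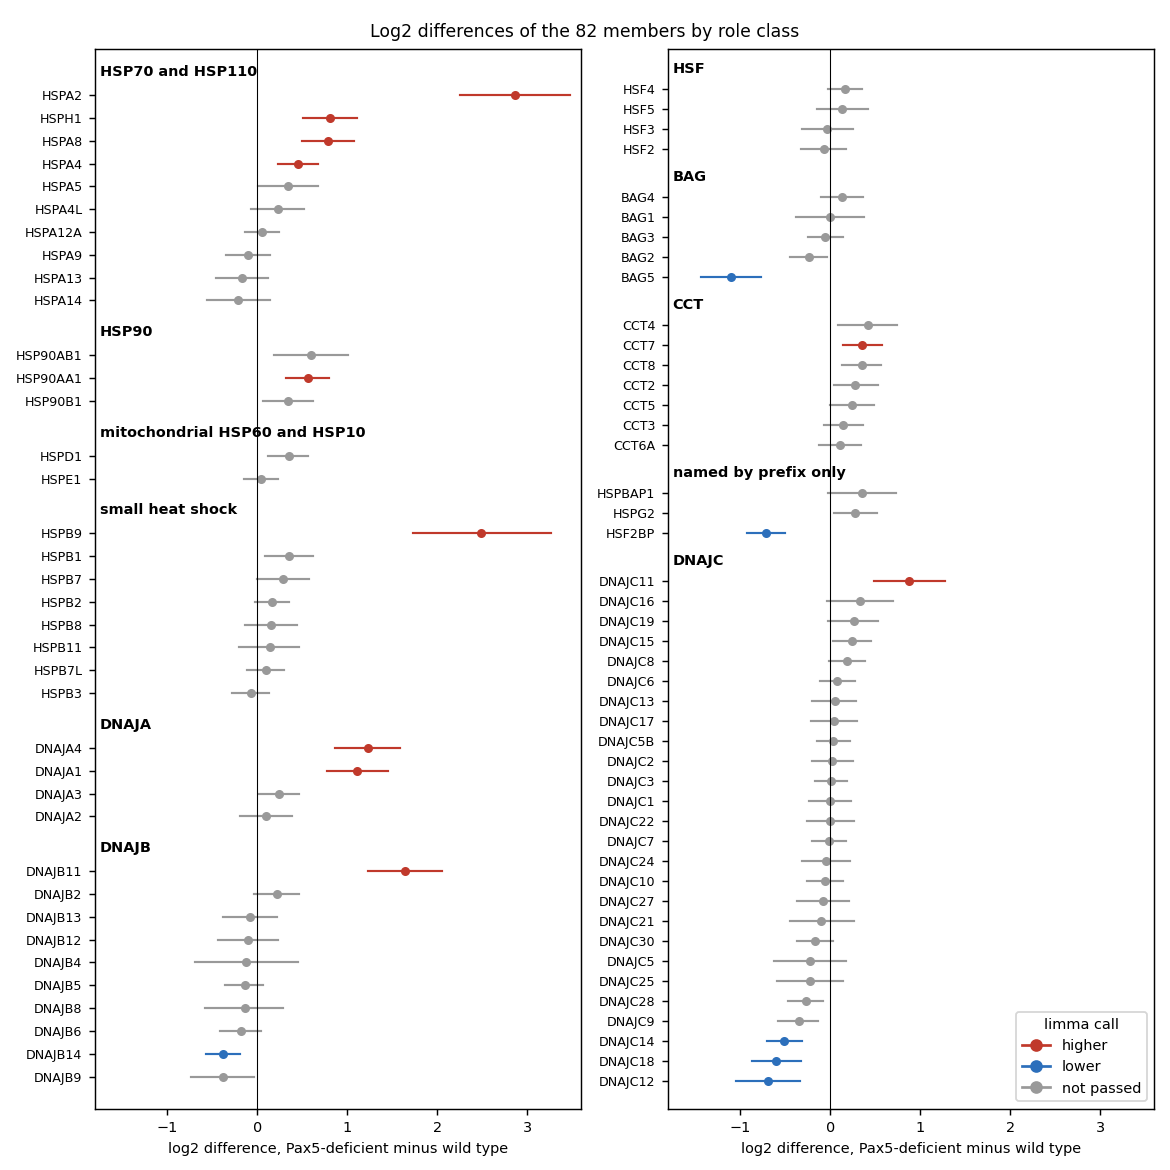
Log2 differences (Pax5-deficient minus wild type, horizontal axis) of the 82 members by role class; points are limma estimates from 3 samples per group, bars are 95% confidence intervals, and colours give the call at an adjusted p of 0.05. HSPA2 at 2.86 and HSPB9 at 2.49 lie farthest to the right, and BAG5 at -1.10 farthest to the left.

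Among the HSP70 and HSP110 proteins, 4 of 10 members rose (40%) and none fell, where 6.01% of all named genes rose and 9.74% fell. The largest log2 difference of the 82 members was that of HSPA2, on chromosome 5, whose RefSeq synonym in chicken is HSP70. It measured 6.25, 6.69 and 7.19 in the wild-type samples and 9.67, 9.97 and 9.07 in the Pax5-deficient samples. The groups were far apart, with the lowest Pax5-deficient sample well above the highest wild-type one. Its log2 rise was 2.86 ± 0.27 (limma's SE, with 3 samples in each group), or 7.25-fold (limma adjusted p = 0.000238). HSPA2 has this 1 probe set on the array, and HSP70 genes share much of their sequence. How far this probe set also binds other HSP70 transcripts was not tested.

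HSPA8, the constitutive cytosolic HSP70 known as HSC70, lies on chromosome 24 and was already bright in wild-type cells. Its values were 11.86, 12.19 and 12.32 in wild-type samples and 12.85, 13.03 and 12.85 in Pax5-deficient samples, with no overlap. It rose by 0.79 ± 0.13 on the log2 scale, 1.73-fold (limma adjusted p = 0.00449). Of 3 exchange factors of the HSP110 type, HSPH1 and HSPA4 rose too. HSPH1 (HSP105), on chromosome 1, had 7.73, 8.04 and 8.01 against 8.55, 8.96 and 8.71, a rise of 0.81 ± 0.13 or 1.76-fold (limma adjusted p = 0.00444). HSPA4, on chromosome 13, had 8.69, 8.91 and 8.98 against 9.35, 9.32 and 9.28, a rise of 0.45 ± 0.10 or 1.37-fold (limma adjusted p = 0.0189). Leaving out wild-type replicate 1, wild-type replicate 2 or Pax5-deficient replicate 1 ended the HSPA4 call (limma adjusted p = 0.0582, 0.0568 and 0.0512), and its other probe set did not pass (0.30 ± 0.15). The other probe set of HSPH1 was at background in every sample, so that the mean of both gave a difference of 0.45.

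The other 6 HSP70-type members did not pass. HSPA5 (BiP), the HSP70 of the endoplasmic reticulum, had a difference of 0.34 ± 0.15 with overlapping groups (95% interval, not adjusted for the number of tests, 0.01 to 0.68), and HSPA9 (mortalin), that of mitochondria, -0.10 ± 0.11 (-0.35 to 0.14). HSPA4L, an HSP110 protein, had 0.23 ± 0.13, and HSPA14, an atypical HSP70 bound to ribosomes, -0.21 ± 0.15. HSPA13 had -0.17 ± 0.13, and HSPA12A was at background in all samples.

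**Figure D2:**
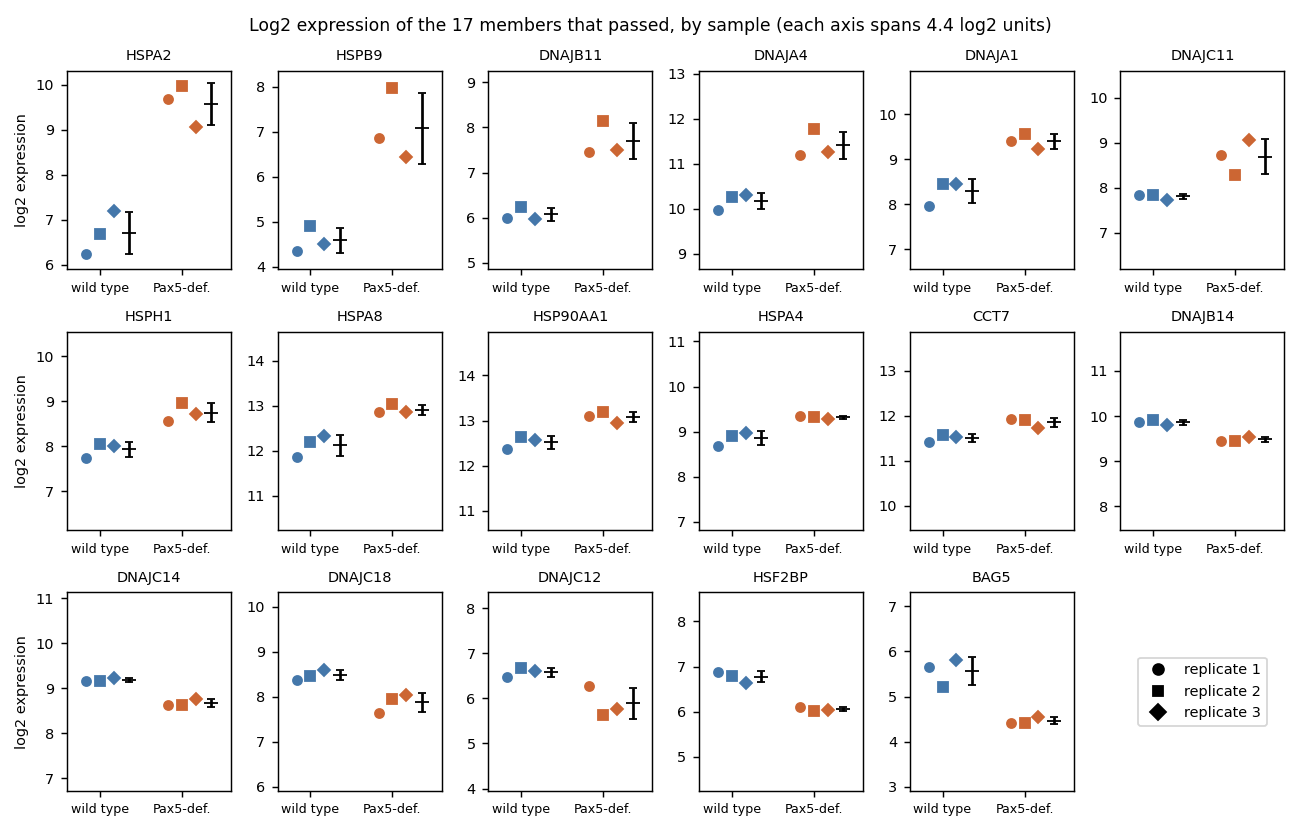
Log2 expression (vertical axes, each spanning 4.4 units) of the 17 members that passed, by sample; blue marks are wild type, orange marks Pax5-deficient, mark shapes are replicate numbers, and black bars are mean ± SD of 3 samples. In every panel the groups lie apart, by most in HSPA2, where wild-type samples end at 7.19 and Pax5-deficient samples begin at 9.07.

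HSP90 genes all had positive differences, as did 7293 of the 13009 named genes. On its brightest probe set 1 of the 3 passed, where 6.01% of all named genes rose. HSP90AA1, the cytosolic HSP90 that heat induces, is on chromosome 5 and had 12.37, 12.64 and 12.56 in wild-type samples and 13.10, 13.18 and 12.95 in Pax5-deficient samples. It rose by 0.56 ± 0.11 on the log2 scale, 1.47-fold (limma adjusted p = 0.00986), and by 1.13 ± 0.13, 2.18-fold, on its other, less bright probe set (limma adjusted p = 0.000725). The probe sets of this gene thus differed in the size of the rise but not in its direction. HSP90AB1, its constitutive paralog, had a difference of 0.60 ± 0.18 that did not pass (limma adjusted p = 0.0761). Its Pax5-deficient values were 9.63, 10.40 and 9.79, all above the wild-type values of 9.36, 9.22 and 9.44, and the difference was 0.37 ± 0.11 without Pax5-deficient replicate 2. HSP90AB1 passed after quantile normalization (limma adjusted p = 0.0424) and without Pax5-deficient replicate 1 (0.0353). HSP90B1 (GRP94), the HSP90 of the endoplasmic reticulum, had 0.34 ± 0.12 on its bright probe set, which did not pass. A dim probe set of HSP90B1 with wild-type values of 3.90 to 4.37 rose by 0.76 ± 0.16 (limma adjusted p = 0.0169), a call lost without wild-type replicate 1 or 3.

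HSPD1 and HSPE1 encode the mitochondrial chaperonin HSP60 and its lid HSP10, and they lie next to each other on chromosome 7 in the order of RefSeq genes. HSPD1 measured 11.87, 12.09 and 11.99 in wild-type and 12.33, 12.45 and 12.22 in Pax5-deficient samples, a difference of 0.35 ± 0.10 that did not pass (limma adjusted p = 0.0601). Its other probe set rose by 0.71 ± 0.12, 1.64-fold (limma adjusted p = 0.00458), and the mean of both also passed (0.0075). HSPE1 overlapped between the groups, with values from 12.50 to 12.51 in wild-type and from 12.49 to 12.63 in Pax5-deficient samples, and its difference was 0.04 ± 0.08 (95% interval -0.15 to 0.23).

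Small heat shock proteins hold unfolded proteins without ATP until the HSP70 system takes them over. The 8 genes measured here were grouped by their HSPB symbols, HSPB11 among them, and whether each acts in this way was not examined. Of these 8, HSPB9 rose (12.5% of them, against 6.01% of all named genes) and the other 7 did not pass. HSPB9, named HSP25 among its RefSeq synonyms, lies on chromosome 27. It measured 4.35, 4.90 and 4.50 in wild-type samples and 6.85, 7.96 and 6.43 in Pax5-deficient samples. All Pax5-deficient values were higher, with replicate 2 above the other 2. HSPB9 rose by 2.49 ± 0.34 on the log2 scale, or 5.63-fold (limma adjusted p = 0.00175), and by 2.05 ± 0.18 without Pax5-deficient replicate 2. On its other probe set it rose by 1.24 ± 0.26, 2.37-fold (limma adjusted p = 0.0148), a call lost without wild-type replicate 2 (0.0722). HSPB1 had a difference of 0.35 ± 0.12 that did not pass (limma adjusted p = 0.0999), from 4.74 to 5.04 in wild-type and from 5.07 to 5.35 in Pax5-deficient samples. It passed without Pax5-deficient replicate 2 (0.0392). HSPB7 and HSPB7L had differences of 0.29 ± 0.13 and 0.10 ± 0.09, and HSPB3 was at background in all samples.

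DnaJ proteins of type A carry the full domain set of the bacterial DnaJ, and 2 of 4 rose, against 6.01% of all named genes. DNAJA4, on chromosome 10, measured 9.97, 10.27 and 10.30 in wild-type and 11.20, 11.76 and 11.27 in Pax5-deficient samples. It rose by 1.23 ± 0.16 on the log2 scale, 2.34-fold (limma adjusted p = 0.00133), and by 1.54 ± 0.19 on another bright probe set. Its other 2 probe sets were at background in both groups, and the mean of all 4 gave 0.75. DNAJA1, a cytosolic partner of HSC70 on chromosome Z, had 7.97, 8.45 and 8.44 against 9.41, 9.56 and 9.22. It rose by 1.11 ± 0.15, 2.16-fold (limma adjusted p = 0.00161), and by 0.99 ± 0.14 on its other probe set. The rises of both genes were thus seen on 2 probe sets each. DNAJA2, another cytosolic partner, had 0.10 ± 0.13 with overlapping groups, and 0.34 ± 0.11 without overlap on another bright probe set. The mitochondrial DNAJA3 had 0.24 ± 0.10, and 0.38 ± 0.12 and -0.14 ± 0.11 on its other probe sets above background. No probe set of DNAJA2 or DNAJA3 passed.

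Of 10 type B proteins 1 rose and 1 fell (10% each), where 6.01% of all named genes rose and 9.74% fell. DNAJB11 (ERdj3), a DnaJ protein of the lumen of the endoplasmic reticulum that works with BiP, is on chromosome 9. Its values were 5.99, 6.23 and 5.97 in wild-type and 7.46, 8.15 and 7.50 in Pax5-deficient samples, again with replicate 2 the highest. It rose by 1.64 ± 0.18, 3.11-fold (limma adjusted p = 0.000565), on the only probe set it has. DNAJB14, a membrane protein of the endoplasmic reticulum that takes part in the degradation of misfolded proteins, fell by 0.38 ± 0.08 on its brightest probe set (limma adjusted p = 0.0197). It fell from values of 9.81 to 9.91 to values of 9.44 to 9.54, but none of its other 4 probe sets passed, and the call was lost with their mean (limma adjusted p = 0.0697) and without wild-type replicate 1 (0.0612) or 2 (0.0861). Its relative DNAJB12, of the same membrane, had -0.10 ± 0.15. DNAJB9 (ERdj4), a BiP partner that the unfolded protein response induces, had -0.38 ± 0.15 on its brightest probe set, which did not pass. Another probe set of DNAJB9 fell by 0.82 ± 0.14 (limma adjusted p = 0.00507), from 7.43, 7.90 and 7.41 to 6.75, 6.72 and 6.82. DNAJB6, which keeps aggregation-prone proteins soluble, had -0.18 ± 0.10.

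The type C proteins share little beyond the J domain, and of 26 members 1 rose (3.85%), 3 fell (11.5%) and 22 did not pass. These shares were near the 6.01% of all named genes that rose and the 9.74% that fell. DNAJC11, a protein of mitochondrial membranes on chromosome 21, rose by 0.88 ± 0.17, 1.84-fold (limma adjusted p = 0.012), and by 0.84 ± 0.21 on its other probe set, where the call ended on leaving out any 1 of 4 samples (0.105 to 0.118). It measured 7.85, 7.84 and 7.74 in wild-type and 8.74, 8.28 and 9.06 in Pax5-deficient samples, so that replicate 2 was here the lowest of the Pax5-deficient samples. It no longer passed on leaving out wild-type replicate 2 or 3 (limma adjusted p = 0.0503 and 0.0521). DNAJC14, a membrane protein of the endoplasmic reticulum, fell by 0.51 ± 0.09, 1.42-fold (limma adjusted p = 0.00574), from 9.16, 9.15 and 9.23 to 8.63, 8.62 and 8.77. DNAJC18, also of that membrane, fell by 0.60 ± 0.12, 1.51-fold (limma adjusted p = 0.0135), with 8.37, 8.46 and 8.59 against 7.64, 7.96 and 8.03. Of its other 4 probe sets 2 fell, by 0.66 ± 0.09 and 0.69 ± 0.15 (the latter not on leaving out any 1 of 3 samples, 0.0546 to 0.0838), and 2 did not pass, and the call on the brightest was lost without wild-type replicate 2 or 3 (limma adjusted p = 0.0558 and 0.0609). DNAJC12, a co-chaperone of aromatic amino acid hydroxylases, fell by 0.69 ± 0.16 (limma adjusted p = 0.0254), from 6.47, 6.67 and 6.60 to 6.28, 5.63 and 5.77. Its call was lost after quantile normalization and without any 1 of 5 of the samples (limma adjusted p = 0.0536 to 0.108), wild-type replicates 1, 2 and 3 and Pax5-deficient replicates 2 and 3.

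Other type C members with known roles did not pass. DNAJC9, a chaperone of histones, had -0.35 ± 0.10 with no overlap between the groups (limma adjusted p = 0.056), and it passed with a variance trend in eBayes (0.0433). DNAJC3 (P58IPK) and DNAJC10 (ERdj5), both of the endoplasmic reticulum, had differences of 0.01 ± 0.08 and -0.06 ± 0.09, with 95% intervals of -0.17 to 0.19 and -0.26 to 0.14. DNAJC1, of the same compartment, had 0.00 ± 0.10, and DNAJC2, a ribosome-bound DnaJ protein, 0.02 ± 0.10. DNAJC8, linked to splicing, had 0.19 ± 0.09.

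None of the 4 measured heat shock factors passed, where 15.8% of all named genes passed in either direction. HSF3, an avian factor that takes part in the heat shock response of chicken cells, had 8.17, 8.15 and 7.79 in wild-type and 8.11, 8.02 and 7.89 in Pax5-deficient samples. The groups overlapped and the difference was -0.03 ± 0.12 (95% interval -0.31 to 0.25). HSF2 had -0.07 ± 0.11 (-0.32 to 0.18) and HSF4 0.17 ± 0.08, the latter on a dim probe set. HSF5 was at background in all samples. HSF1 carries no probe set under that symbol in the annotation and is not analysed here.

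BAG proteins release ADP from HSP70. BAG5, on chromosome 5, fell by 1.10 ± 0.15, 2.15-fold (limma adjusted p = 0.00172), which was the largest fall among the 82 members. It measured 5.66, 5.21 and 5.81 in wild-type and 4.41, 4.41 and 4.55 in Pax5-deficient samples, with no overlap, on the only probe set it has. BAG2, an inhibitor of the ubiquitin ligase CHIP, had -0.24 ± 0.09 with no overlap (limma adjusted p = 0.155). BAG1 had 0.00 ± 0.17 and BAG4 0.13 ± 0.10. BAG3, itself a gene that heat stress induces in mammals, was at background in all samples on both of its probe sets. Of the members that are not chaperones, HSF2BP on chromosome 1 fell by 0.71 ± 0.09, 1.63-fold (limma adjusted p = 0.00146), from 6.87, 6.78 and 6.64 to 6.11, 6.02 and 6.04. HSPBAP1 and HSPG2 had differences of 0.35 ± 0.17 and 0.28 ± 0.11 that did not pass.

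The 7 measured chaperonin subunits all had positive differences, from 0.11 to 0.42 with a median of 0.28, but only CCT7 passed on its brightest probe set. Over all named genes, 7293 of 13009 had a positive difference and 6.01% rose. CCT7 measured 11.41, 11.57 and 11.53 in wild-type and 11.93, 11.90 and 11.74 in Pax5-deficient samples, a rise of 0.35 ± 0.09 or 1.28-fold (limma adjusted p = 0.0459). That call was lost with arrays centred on their medians (limma adjusted p = 0.0674) and on leaving out any 1 of 5 samples (0.095 to 0.144), all but Pax5-deficient replicate 3. CCT8 had 0.35 ± 0.09, just short of passing (limma adjusted p = 0.0505), and CCT2, CCT4 and CCT5 had 0.28 ± 0.11, 0.42 ± 0.14 and 0.24 ± 0.11. Another probe set of CCT4 rose by 0.55 ± 0.14 (limma adjusted p = 0.0365), a call that ended with arrays centred (0.0566) and on leaving out any wild-type sample or Pax5-deficient replicate 3 (0.0673 to 0.131). For 6 of the 7 genes all Pax5-deficient samples lay above all wild-type samples, as they did for 17.5% of all named genes. All 7 differences were positive in each alternative setting. These settings reuse the same arrays, and some, such as the variance trend and the replicate block, cannot change a difference.

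**Figure D3:**
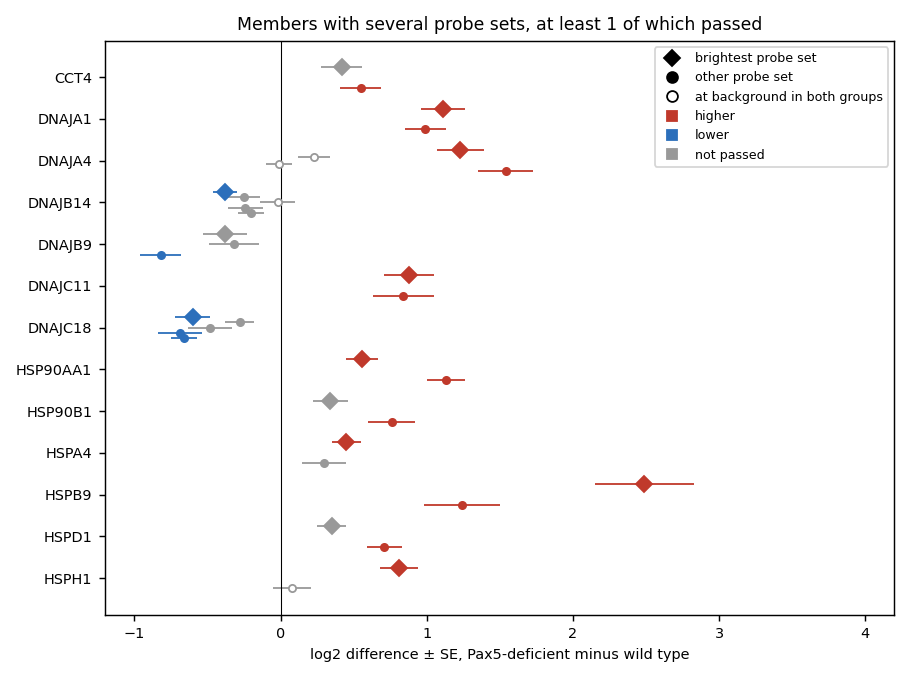
Log2 differences ± SE (horizontal axis, 3 samples per group) of each probe set of the 13 members with several probe sets of which at least 1 passed; diamonds are the brightest probe set, open marks were at background in both groups, and colours give the call. No member has probe sets that passed in opposite directions, and HSP90AA1 spans 0.56 to 1.13.

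More than 1 probe set was present for 47 members, and 35 had 1. Of the 17 members that passed, 9 had another probe set, and for 6 of them another one passed in the same direction. For 4 members that did not pass, CCT4, DNAJB9, HSP90B1 and HSPD1, another probe set did. No member had probe sets that passed in both directions. Of the 82 brightest probe sets 22 have an ID ending in s_at or x_at, which marks probes shared by several transcripts, among them those of DNAJA1, CCT7, DNAJB14 and DNAJC18.

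The Pax5-deficient samples were not alike for these genes. Replicate 2 was the highest Pax5-deficient sample for 8 of the 11 risers (72.7%), for 6 of the 7 chaperonin subunits and for 57.3% of all members, while it was the highest for 53.2% of the 782 named genes that rose and 39.3% of all named genes. Among wild-type samples, replicate 1 was the lowest for 9 of the 11 risers (81.8%) and for all 7 chaperonin subunits. It was the lowest for 51.2% of all members, 45.3% of the named genes that rose and 37.6% of all named genes. Without Pax5-deficient replicate 2, 12 members were higher and 7 lower, and over all named genes 5.84% were higher and 10.3% lower. Without wild-type replicate 1, 9 members were higher and 5 lower, and over all named genes 3.82% were higher and 7.98% lower.

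The members that passed lay on 12 chromosomes. For 3 of these the other genes had a median deviation from wild type of at least 0.17 in 1 or more Pax5-deficient samples. The 380 other named genes of chromosome 9, where DNAJB11 lies, had median deviations from the wild-type mean of 0.21, 0.17 and 0.17 in the Pax5-deficient samples, and 28.2% of them were higher. DNAJB11 measured 7.46, 8.15 and 7.50 in the same samples. For the 212 of chromosome 21, where DNAJC11 lies, the medians were 0.32, -0.02 and 0.24, so that replicate 2 was lowest, as it was for DNAJC11. For the 357 of chromosome 10, where DNAJA4 lies, they were 0.01, 0.17 and -0.01, with replicate 2 highest, as for DNAJA4. Over all chromosomes, replicate 2 was the highest Pax5-deficient sample for 8 of the 11 risers. The exceptions were HSPA4, CCT7 and DNAJC11. Without Pax5-deficient replicate 2, the sample with the raised chromosome 10 median, the difference of DNAJA4 was 1.05 ± 0.12. That of DNAJC11 was then 1.09 ± 0.12, from replicates 1 and 3, whose chromosome 21 medians were raised. In replicate 2, where that median was -0.02, DNAJC11 measured 8.28, against a wild-type mean of 7.81. On the chromosomes of HSPA2, HSPB9, HSPA8, HSPH1, HSP90AA1 and DNAJA1, the medians of the group difference lay between 0.01 and 0.07. By that measure chromosome 10 had 0.06, and chromosomes 9 and 21 had 0.16 and 0.17. For chromosome 24, where HSPA8 lies, the median deviations in the Pax5-deficient samples were 0.07, 0.08 and 0.06. Those of chromosome 27, where HSPB9 lies, were 0.05, 0.05 and 0.04. The part of these chromosome deviations in the values of the members was not tested.

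**Figure D4:**
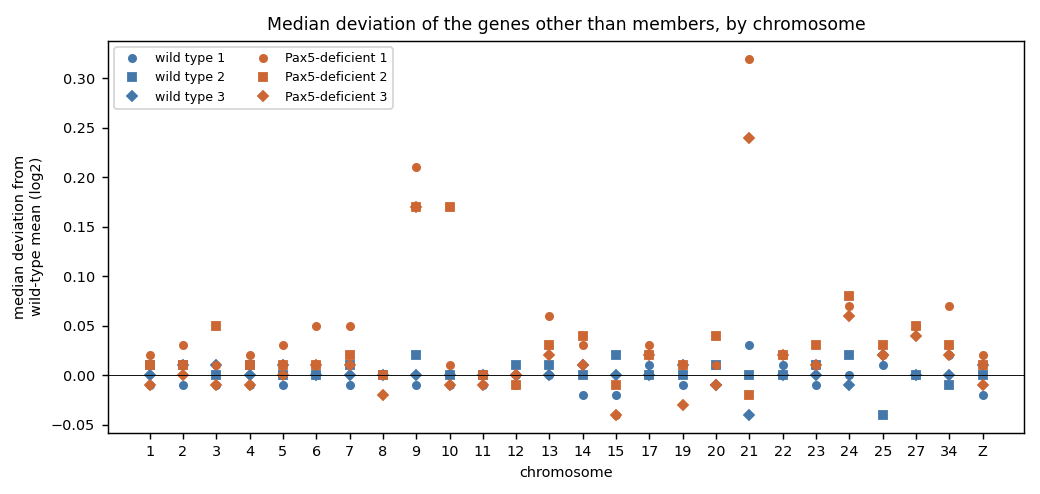
Median deviation from the wild-type mean (log2, vertical axis) of the named genes other than members on each of the 26 chromosomes that hold a member, by sample; blue marks are wild type and orange marks Pax5-deficient. Chromosome 9 is raised in all Pax5-deficient samples (0.17 to 0.21), chromosome 21 in replicates 1 and 3 (0.32 and 0.24) and chromosome 10 in replicate 2 (0.17).

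Genes that work with the members were described from 5 lists, whose counts stand against the 6.01% of all named genes that rose and the 9.74% that fell. In the list of co-chaperones of HSP70 and HSP90, 5 of 21 measured genes rose (23.8%), 1 fell (4.76%) and 15 did not pass, with a median difference of 0.11. That list also held CRYAB, SERPINH1 and HSBP1, which are not such co-chaperones and did not pass. STIP1 (HOP), which links HSP70 to HSP90, rose by 0.90 ± 0.16, from 8.18, 8.25 and 8.31 to 8.99, 9.55 and 8.91 (limma adjusted p = 0.00672). AHSA1, which activates the ATPase of HSP90, rose by 0.75 ± 0.13, from 9.53, 9.78 and 9.68 to 10.31, 10.68 and 10.26 (limma adjusted p = 0.00581). NUDC, the immunophilin FKBP4 and TOMM34 rose by 0.48 ± 0.08, 0.42 ± 0.08 and 0.66 ± 0.16. CDC37, which brings kinases to HSP90, fell by 1.18 ± 0.18, from 7.68, 7.75 and 7.73 to 6.63, 6.91 and 6.09 (limma adjusted p = 0.00341), while its dimmer probe set did not pass (0.02 ± 0.08). Genes of the HSP90 cycle thus moved in both directions. With the mean of their probe sets the differences of STIP1, AHSA1 and CDC37 were 0.56, 0.38 and -0.58, and all 3 still passed. The FKBP4 call was lost with the mean of its probe sets (limma adjusted p = 0.0522) and without wild-type replicate 3 (0.0624), and that of TOMM34 also without it (0.0552) or without Pax5-deficient replicate 2 (0.0603) or 3 (0.0964).

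Of 17 measured partners of the chaperonin, which include prefoldin and tubulin cofactors, none rose, 2 fell (11.8%) and 15 did not pass. TCP1, the first chaperonin subunit, had 0.20 ± 0.12 (95% interval -0.07 to 0.46), the prefoldin subunit PFDN4 fell by 0.65 ± 0.10, and TBCC, a tubulin cofactor, fell by 0.47 ± 0.11. TBCC no longer passed on leaving out replicate 3 of either group or wild-type replicate 1 (limma adjusted p = 0.0961 to 0.1). Its other probe set, also above background, had -0.22 ± 0.11 with overlapping groups and did not pass (limma adjusted p = 0.325). Among 19 measured folding partners in the endoplasmic reticulum 3 rose (15.8%) and 1 fell (5.26%). The glucosyltransferase UGGT1, which marks unfolded glycoproteins, rose by 0.76 ± 0.09, and the calcium-binding chaperone CALR by 0.69 ± 0.10. UGGT1 lies on chromosome 9, where 28.2% of the named genes other than members were higher, and the part of that shift in its value was not tested. The thiol oxidase ERO1A rose by 0.61 ± 0.09, while its paralog ERO1B fell by 1.08 ± 0.09. The mean of its probe sets gave 0.33 for ERO1A, which still passed. HYOU1 and SIL1, exchange factors of BiP, had 0.20 ± 0.12 and -0.34 ± 0.12, and neither passed.

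Of 8 measured mitochondrial partners 2 rose (25%) and none fell. The risers were TIMM44, which tethers the mitochondrial HSP70 to the import channel, by 0.56 ± 0.11, and the protease HTRA2 by 0.39 ± 0.09, a call lost with arrays centred on their medians (limma adjusted p = 0.0517) and without any 1 of 5 samples (0.0595 to 0.0988), all but Pax5-deficient replicate 1. The TIMM44 call was lost without wild-type replicate 3 (0.0596). GRPEL1 and GRPEL2, exchange factors of HSPA9, had -0.20 ± 0.08 and -0.13 ± 0.09, and neither passed. In the list of stress response regulators, which also held the enzyme HMOX1, 1 of 13 measured genes rose (7.69%) and 3 fell (23.1%). HMOX1, the heme oxygenase that oxidative and heat stress induce, rose by 0.74 ± 0.19, from 7.24, 7.58 and 7.33 to 8.19, 7.70 and 8.49, and lost its call without any 1 of 5 samples (limma adjusted p = 0.065 to 0.125), all but Pax5-deficient replicate 2. NFE2L1, a factor that raises proteasome genes, PPP1R15B, which directs dephosphorylation of a translation initiation factor, and the acetyltransferase EP300 fell by 0.75 ± 0.11, 0.68 ± 0.10 and 0.57 ± 0.09. The mean of its probe sets gave -0.40 for NFE2L1, which still passed, and -0.18 for EP300, which did not (limma adjusted p = 0.218). XBP1 and ATF4, factors of the unfolded protein and integrated stress responses, had differences of 0.03 ± 0.08 and 0.23 ± 0.20 that did not pass.

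**Figure D5:**
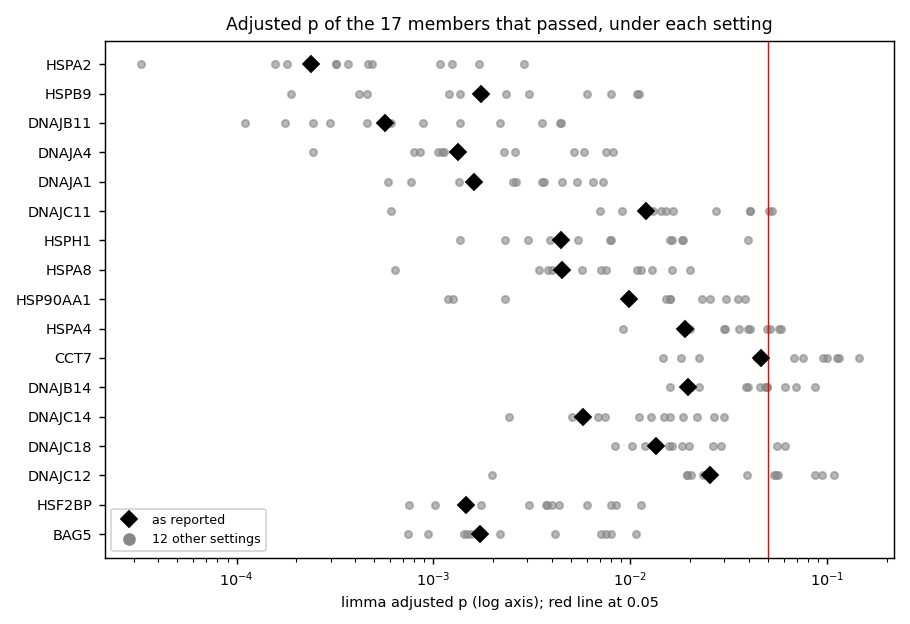
Limma adjusted p (logarithmic axis) of the 17 members that passed, as reported (black diamonds) and under 12 other settings (grey points); the red line marks 0.05. For 11 of the 17 all points lie left of the line, and CCT7 crosses it most often, in 7 of 12.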

How the data were processed

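Total RNA of 3 wild-type and 3 Pax5-deficient DT40 samples was biotin-labelled for Affymetrix chicken arrays, and samples were grouped by their titles. The deposited log2 values, 1 per probe set and sample, are the authors' RMA values, per the submitters' processing notes. RMA in general subtracts background, quantile-normalizes the arrays and summarises the probes of a set, and it shrinks differences of dim probe sets. The sources used here give neither its version nor a scan batch. The table held 38535 probe sets. Of these, 96 array controls were left out, 27168 had 1 gene symbol in the platform annotation, 177 had several and 11094 had none here. Symbols were checked through Entrez IDs against RefSeq for GRCg7b (0 changed), which also gave chromosomes. The annotation names no build, so no coordinates are given.

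Each probe set was fitted with limma 3.58.1 in R 4.3.3 (group as the only term, eBayes, two-sided), with Benjamini-Hochberg adjustment over 38439 probe sets and a threshold of 0.05. SE and 95% intervals are limma's moderated ones, and ± after a level is SD. On simulated data the fit found 17.91% of changes of 0.5 on the log2 scale, 70.15% of changes of 1 and 100% of changes of 2. These were set in 67, 67 and 66 of 38439 probe sets, all brighter than the median probe set. In the real data 4085 probe sets passed, and with more changes the adjustment is less strict. The simulated rates therefore do not give the share of real changes that was found. Named genes were all members that passed, the 3 brightest of each class, members whose probe sets disagreed, and in each partner list the genes that passed and those with the 3 smallest adjusted p. Other names were chosen after their values were seen. Members and lists were chosen with earlier results of these data known, and counts over them are descriptions with no set test. Background was defined after the data were seen. Tables and plots were made in Python 3.11.15. Alternatives were quantile normalization, centring, a filter on dim probe sets, the mean of probe sets, a variance trend, a replicate block and leaving out each sample.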

Additional observations from a re-analysis of the deposited data

How the results depend on the processing

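Of the 17 members that passed, 11 did so under all 12 alternatives: HSPA2, HSPB9, DNAJB11, DNAJA4, DNAJA1, HSPH1, HSPA8, HSP90AA1, BAG5, HSF2BP and DNAJC14. The other 6 (CCT7, DNAJC12, HSPA4, DNAJB14, DNAJC11 and DNAJC18) lost their call in at least 1, and no call changed direction. The count of members that passed was 19 after quantile normalization, 16 after centring, 18 without dim probe sets, 20 with a variance trend and 22 with the mean of probe sets. With single samples left out it ran from 11 to 19, with 8 to 12 higher and 3 to 7 lower, lowest without wild-type replicate 2. Over all probe sets that count ran from 2490 to 4172 against 4085, and that of partner genes from 12 to 18 against 18. Same-numbered samples of the 2 groups had correlations of their deviations of 0.115, 0.072 and -0.007, so the numbers were not taken as pairs. With a replicate block 16 members, 17 partner genes and 4116 probe sets passed. The block ended the calls of CCT7 (limma adjusted p = 0.0755), HMOX1 (0.0527) and the other probe set of DNAJC11 (0.0641). Signals near background limit what dim members can show.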
